A study of Mus musculus with 40 samples.

Results

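Tumor RNA was compared between mice that received an Fc-dead (FcD) and mice that received an Fc-active (WT) mAb against GARP:TGF-β1, each given without anti-PD-1. These were the 5 FcD and the 5 WT mice of a series of 40 mice in 8 groups. They were selected by treatment label, with earlier results of these data known. All were BALB/c mice aged 6 to 12 weeks that carried s.c. tumors grown from 1000000 cells of CT26, a syngeneic colon carcinoma line. They received i.p. mAb injections on days 6, 9 and 12 after the cells, and the tumors were taken on day 13. Both mAbs were clone 58A2 in the mouse IgG2a format, and the FcD form carries substitutions in its Fc part that prevent binding to mouse Fcγ receptors. Control mice received an isotype mAb (motavizumab, mIgG2a), and 2 further groups of 5 mice received FcD or WT together with anti-PD-1 in an Fc-silent format. The comparison asks whether binding of anti-GARP:TGF-β1 to Fcγ receptors alters the tumor transcriptome when the mAb is given alone.

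GARP, encoded by Lrrc32, holds latent TGF-β1 on the surface of activated regulatory T cells (Tregs), where integrin αVβ8 can release the active cytokine. A blocking mAb prevents this release whatever its Fc part, whereas an Fc-active mIgG2a can in addition engage Fcγ receptors on cells such as macrophages, which may phagocytose the coated cell. Active TGF-β1 signals through its receptors and Smad proteins, restrains T cell effector functions, and induces matrix genes in fibroblasts.

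The values are reads counted per gene in whole tumors, given here as CPM (reads of a gene relative to all counted reads, after TMM scaling). Bulk RNA cannot tell fewer cells of a type from less RNA per cell, and each p-value sets a difference between groups against the spread between mice. Counted reads ran from 11931730 to 20680548 over the 10 mice and did not differ detectably between FcD and WT (exact permutation test, 2-sided, p = 0.714, where the smallest possible p is 0.00794). FcD mice 1 and 2 and WT mice 1, 2 and 3 have library numbers of 41 to 60 and contain Y-linked transcripts, whereas the other mice have numbers of 61 to 80 and contain Xist. Library part and mouse sex therefore cannot be told apart, and for several lists differences are also given within each part. The labelled tumor showed high Vim, a mesenchymal intermediate filament gene, at 4475 to 6235 CPM, and low epithelial markers, with Epcam between 0 and 2.75 CPM. Some mice stood apart in the gene groups described further on: WT mouse 1 in stromal, fat and B cell genes, WT mouse 5 in ribosomal and neutrophil genes, and FcD mouse 5 in T cell and interferon-γ (IFNγ) response genes.

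No gene of 14760 tested differed between FcD and WT tumors at an adjusted p of 0.05 (edgeR's quasi-likelihood test, 0% called, smallest adjusted p 0.999), and DESeq2's Wald test also called 0 genes. At an unadjusted p under 0.05, 207 genes differed (1.4% of those tested), 102 higher (0.691%) and 105 lower (0.711%) with FcD, and DESeq2 counted 313 of 31287 genes (1%). The smallest unadjusted p was 0.00225. The median log2 fold change, FcD minus WT, was -0.01, and the 5th and 95th percentiles over genes were -0.47 and 0.26. For 12227 genes (82.8%), the 95% confidence interval of the log2 fold change lay within 1 unit of 0, so that a 2-fold difference in either direction fell outside it. Among the 2269 genes with a mean over 100 CPM this share was 98.9%, and among the 1582 genes under 1 CPM it was 21.9%. The data thus bound the difference closely for well-expressed genes and weakly for rare transcripts, which include several Treg genes.

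**Figure D1:**
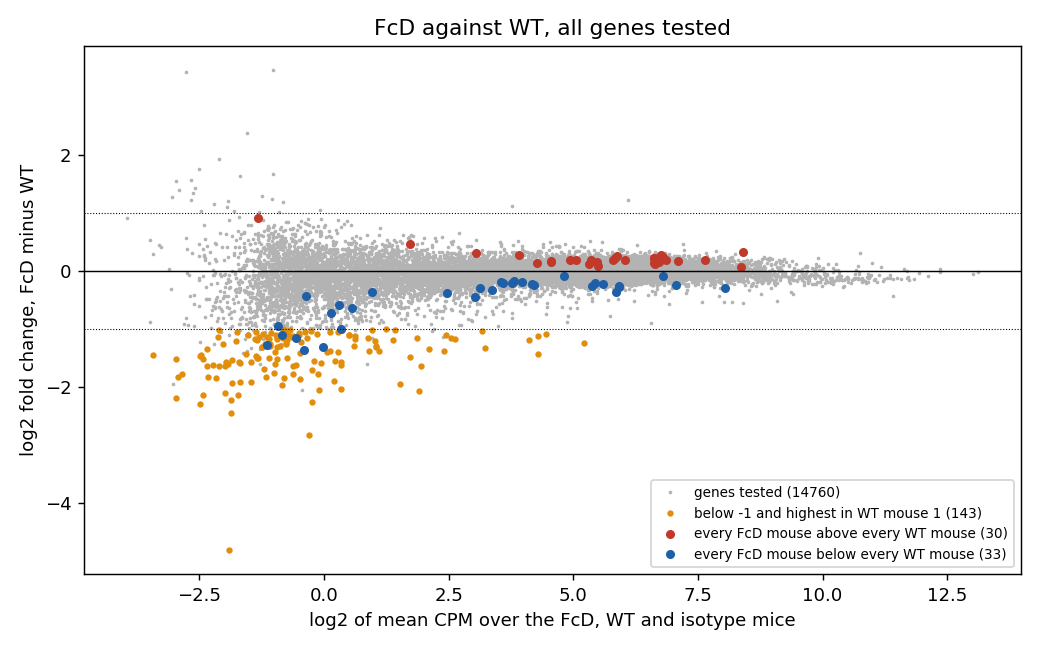
Each point is a gene, with the log2 of its mean CPM over the FcD, WT and isotype mice on the x axis and its log2 fold change, FcD minus WT, on the y axis. Orange points are the 143 genes below -1 whose highest value of the 10 mice was in WT mouse 1, and red and blue points are the 30 higher and 33 lower genes whose groups do not overlap, most of them within 0.5 of 0.

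The larger fold changes went mainly one way. The point estimate exceeded 1 log2 unit for 27 genes on the higher side and for 174 on the lower side of FcD. In 143 of these 174 genes, the highest of the 10 values belonged to WT mouse 1. Without that mouse, 60 of the genes tested lay below -1 and 48 above 1.

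The genes of the mAb's target did not differ detectably. Lrrc32 (chromosome 7, 98489283 to 98502181, plus strand, GRCm38) measured 5.01, 3.09, 4.11, 3.31 and 3.78 CPM in FcD mice 1 to 5, and 9.28, 3.16, 3.66, 4.10 and 4.67 CPM in WT mice 1 to 5. The groups overlapped, and WT mouse 1 was the highest of the 10 by a wide margin. The log2 fold change was -0.36 (95% CI -1.25 to 0.54, unadjusted p = 0.427), and it was -0.0042 without WT mouse 1. Tgfb1, which encodes the cytokine, measured 115, 80.5, 98.9, 97.8 and 94.6 CPM with FcD and 87.6, 92.3, 89.5, 93.2 and 109 CPM with WT. Its log2 fold change was 0.05 (95% CI -0.28 to 0.38), a narrow interval around 0. Itgb8, the β8 subunit of the activating integrin, lay between 0.742 and 2.12 CPM with FcD and between 0.501 and 2.22 CPM with WT. Per kilobase of exon, Tgfb1 reached 19.3 ± 2.5 CPM (SD, n = 5) with FcD and Lrrc32 0.824 ± 0.16, so that the cytokine's mRNA was far more abundant than that of GARP. The paper also describes GARP on platelets and, in human tissues, in blood vessel walls. Lrrc32 in whole tumors is therefore no measure of Tregs alone.

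Lists of genes of TGF-β1 activation and signaling had small median differences between the mAbs. The list of 16 tested genes of latent TGF-β activation holds Lrrc32, integrins, latent TGF-β binding proteins, Furin, Thbs1 and others. Of these, 13 were higher and 3 lower in FcD, and 0 had an unadjusted p under 0.05. The median log2 fold change was 0.07, which was 0.12 without WT mouse 4. The latent TGF-β binding protein gene Ltbp1 had the smallest p on the higher side, with 0.22 (unadjusted p = 0.198). Among 17 genes for receptors, Smads and feedback inhibitors, the median was 0.06, with 12 higher and 5 lower, and it was -0.00059 without WT mouse 3. Within libraries 41 to 60 and 61 to 80 it was -0.0072 and 0.15. Smad3, a transcription factor that receptors activate directly, was the only one of the 17 with an unadjusted p under 0.05, where 1.4% of all genes had one. It measured 74.5, 74.9, 80.7, 80.7 and 90.9 CPM with FcD against 74.7, 74.1, 53.8, 69.2 and 69.8 CPM with WT, a log2 fold change of 0.23 (95% CI 0.0048 to 0.46, unadjusted p = 0.0457, adjusted p = 0.999). The groups overlapped by a narrow margin, and WT mouse 3 was far below the other WT mice. Smad7, an inhibitory Smad that TGF-β itself induces, had a log2 fold change of -0.02 (95% CI -0.29 to 0.26), and Skil, another feedback gene, -0.04 (95% CI -0.40 to 0.33). The experimental TGF-β1 signatures that the study defined in cultured cells, matched by symbol, had medians of -0.02 over 113 genes for all its cell types and of -0.055 over 40 genes for CD4+ T cells. These medians lie close to the all-gene median of -0.01.

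Treg genes were measured at low levels and did not differ detectably. Foxp3, the lineage transcription factor, measured 1.36, 1.34, 0.212, 1.69 and 0.598 CPM with FcD and 3.74, 0.754, 1.01, 1.08 and 1.34 CPM with WT. WT mouse 1 again had the highest value, and the remaining mice of both groups overlapped. The log2 fold change was -0.59 (95% CI -1.55 to 0.37, unadjusted p = 0.22), and it became 0.0065 without WT mouse 1. Il2ra, the high-affinity IL-2 receptor chain, had a log2 fold change of 0.06 (95% CI -0.76 to 0.89), and Ctla4, an inhibitory receptor, -0.16 (95% CI -1.66 to 1.34). Tnfrsf18, which encodes GITR, had -0.26, and Ikzf2, which encodes Helios, had -0.40. With 1 mouse left out, Tnfrsf18 ran from -0.39 to -0.07 and Ikzf2 from -0.67 to -0.17. Of 21 tested Treg genes, 6 were higher and 15 lower in FcD, 0 had an unadjusted p under 0.05, and the median was -0.14. The median was -0.01 without WT mouse 1, when 13 of the 21 genes were lower, and -0.23 without FcD mouse 4. It was -0.35 within libraries 41 to 60, 0.04 within libraries 61 to 80 and -0.05 with the part as a covariate. The interval of Ctla4 includes a 2-fold difference in either direction and that of Foxp3 a 2-fold lower level with FcD, so a moderate difference in these transcripts was not detectable in these data.

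**Figure D2:**
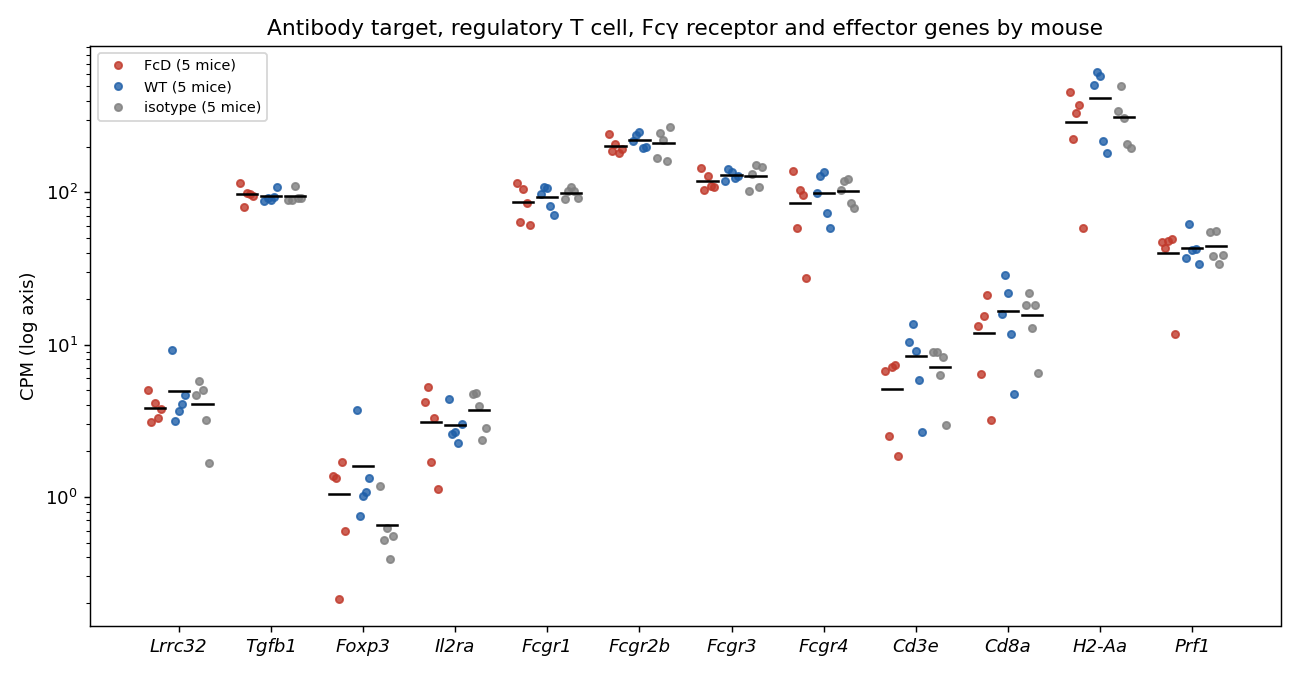
Each point is the CPM of 1 mouse on a log axis for 12 genes, with 5 FcD, 5 WT and 5 isotype mice per gene and a black line at each group mean. FcD and WT points overlap for every gene shown, WT mouse 1 is the high point of Lrrc32 and Foxp3, and FcD mouse 5 is the low point of Fcgr4, H2-Aa and Prf1.

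The genes of the mouse Fcγ receptors did not differ detectably. Fcgr1, Fcgr3 and Fcgr4 encode the activating mouse Fcγ receptors, Fcgr2b the inhibitory one, and Fcer1g the signaling chain that the activating receptors share. Fcgr4, whose product binds mIgG2a strongly, measured 138, 58, 104, 96.5 and 27.6 CPM with FcD and 99.5, 129, 136, 73.5 and 58.7 CPM with WT. The spread was wide in both groups, and the highest and the lowest value both came from FcD mice. Its log2 fold change was -0.23 (95% CI -1.22 to 0.76, unadjusted p = 0.639), and -0.0051 without FcD mouse 5. Fcgr2b measured 242, 187, 208, 181 and 192 CPM with FcD and 217, 240, 249, 197 and 199 CPM with WT, a log2 fold change of -0.13 (95% CI -0.57 to 0.32). Fcgr3 also had -0.13 (95% CI -0.67 to 0.41), Fcgr1 -0.11 (95% CI -0.75 to 0.52), and Fcer1g -0.15 (95% CI -0.78 to 0.49). Fcgr2b, Fcgr3 and Fcgr4 lie within 1 cluster on chromosome 1 (170958617 to 171064935, GRCm38), and their related sequences may share reads. Per kilobase of exon, Fcgr3 reached 68.5 ± 9.7 CPM (SD, n = 5) and Fcgr4 67.4 ± 34 with FcD, about 2 times Fcgr2b at 34.9 ± 4.3 and Fcgr1 at 33.2 ± 9.4, and the WT tumors had the same pairs. These values depend on the exon lengths, which count every annotated exon of a gene (5790 bases for Fcgr2b, 1736 for Fcgr3, 1256 for Fcgr4). The transcripts present were not examined, and in CPM Fcgr2b was above Fcgr4 in every mouse. All 7 genes of the IgG receptor list, which adds the neonatal receptor Fcgrt and the cytosolic receptor Trim21, were lower in FcD, with a range from -0.23 to -0.11 and a median of -0.15. None passed an unadjusted p of 0.05. Without FcD mouse 5 the median was -0.03, and it was -0.25 without FcD mouse 1.

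Of 12 genes that relay Fcγ receptor signals (Syk, Lyn, Btk, the phosphatase gene Inpp5d and others), 11 were lower in FcD with a median of -0.08, and 0 had an unadjusted p under 0.05. Without FcD mouse 5, 5 of the 12 were lower, and the median was 0.0027. It was 0.03 without FcD mouse 2 and -0.16 without FcD mouse 1, and within libraries 41 to 60 and 61 to 80 it was -0.28 and 0.20. Lat2, an adaptor, had the smallest p on the lower side (-0.33, unadjusted p = 0.194). Macrophage genes had a median of -0.15 over 23 genes, 20 of them lower, which was -0.25 without FcD mouse 1 and -0.08 without FcD mouse 2. Csf1r, the receptor for macrophage colony-stimulating factor, had a log2 fold change of -0.04 (95% CI -0.71 to 0.62), and Adgre1, which encodes F4/80, -0.12 (95% CI -1.15 to 0.91). Complement genes had a median of -0.20, with 16 of 18 lower in all mice and 12 of 18 without FcD mouse 5. The complement median was -0.33 without FcD mouse 1 and -0.09 without WT mouse 1. The initiating component C1qa had -0.29 (95% CI -0.86 to 0.28). Mast cell and basophil genes had a median of -0.40, with 9 of 10 lower, and of -0.39 within each library part. With 1 mouse left out, this median ran from -0.55 to -0.30. Monocyte genes had -0.25, with 13 of 14 lower, and -0.29 and -0.16 within libraries 41 to 60 and 61 to 80. Their median ran from -0.35 to -0.14 with 1 mouse left out. With anti-PD-1 the 2 list medians were -0.44 and 0.04.

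NK cell genes had a median of -0.36, with 14 of 16 lower in FcD, and the median was -0.21 without WT mouse 2 and -0.49 without WT mouse 5. Klrb1c, an NK cell receptor gene, was the only one of the 16 without overlap between the groups, where 0.427% of all genes had none. It measured 1.18, 1.00, 0.779, 0.474 and 0.730 CPM with FcD and 1.5, 1.23, 1.39, 1.39 and 1.42 CPM with WT. Every FcD mouse lay below every WT mouse, with a log2 fold change of -0.73 (95% CI -1.42 to -0.03, unadjusted p = 0.0421, adjusted p = 0.999). Isotype mice had 1.05 ± 0.46 CPM (SD, n = 5), between the groups, and with anti-PD-1 the same contrast was -0.21 (unadjusted p = 0.528). Ncr1, which encodes the NK receptor NKp46, had -0.20 (95% CI -0.72 to 0.33), and Klrk1, which encodes NKG2D and is also carried by CD8+ T cells, -0.43 (95% CI -1.22 to 0.36). The Ly49 genes Klra4 and Klra8 had at most 1 read in either group. Whether BALB/c mice carry these genes of the GRCm38 reference was not examined, so their counts give no measure of NK cells.

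All 19 genes of the T cell receptor complex and its kinases were lower in FcD, with a median of -0.60. Cd3e, a signaling chain of the receptor, measured 6.68, 2.51, 7.15, 7.31 and 1.86 CPM with FcD and 10.5, 13.7, 9.14, 5.87 and 2.67 CPM with WT. FcD mice 2 and 5 and WT mouse 5 were low, WT mice 1, 2 and 3 were above every FcD mouse, and WT mice 4 and 5 were not. The log2 fold change was -0.72 (95% CI -1.87 to 0.44, unadjusted p = 0.214). Cd8a, the cytotoxic T cell coreceptor, had -0.48 (95% CI -1.80 to 0.83) and Pdcd1, which encodes PD-1, -0.80 (95% CI -2.04 to 0.44). Without WT mouse 2 these values were -0.46 for Cd3e, -0.19 for Cd8a and -0.44 for Pdcd1. Cd5, a negative regulator of receptor signaling, was the only one of the 19 with an unadjusted p under 0.05 (-0.89, unadjusted p = 0.0478, adjusted p = 0.999), where 1.4% of all genes had one.

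The T cell difference was opposite in the 2 library parts. Within libraries 41 to 60 (2 FcD, 3 WT mice) the median of the 19 genes was -1.16, and within libraries 61 to 80 (3 FcD, 2 WT mice) it was 0.31. For Cd3e the values were -1.26 and 0.34, and the difference between the parts was itself not detectable (unadjusted p = 0.176). Checkpoint genes, whose median was -0.29 with all mice and -0.07 without WT mouse 2, had -0.42 and 0.22 in the same order, and NK genes -0.48 and 0.15. Other lists kept their sign in both parts. Macrophage genes had -0.23 and -0.03, complement genes -0.27 and -0.09, and IgG Fc receptor genes -0.15 and -0.03. MHC class I genes had -0.09 and -0.20, fibroblast genes -0.66 and -0.11, and adipocyte genes -0.76 and -0.74. FcD mouse 5 had the lowest value of the 10 mice in 16 of the 19 T cell genes, and WT mouse 2 had the highest in 11. Without FcD mouse 5 all 19 genes were still lower, with a median of -0.43, and without WT mouse 1 18 of them were, with a median of -0.57. The score of the list, its mean log2 CPM, was 1.93 ± 0.68 (SD, n = 5) with FcD, 2.5 ± 0.65 with WT and 2.33 ± 0.42 with isotype, a difference between the mAbs within the spread between mice.

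All 12 genes of MHC class II presentation were lower in FcD, with a median of -0.42, which was -0.64 in libraries 41 to 60 and 0.30 in libraries 61 to 80. H2-Aa, a class II α chain, measured 453, 224, 331, 374 and 58.2 CPM with FcD and 507, 615, 578, 217 and 182 CPM with WT. FcD mouse 5 was the lowest by a wide margin, and WT mice 4 and 5 were below 4 of the 5 FcD mice. The log2 fold change was -0.54 (95% CI -1.62 to 0.53, unadjusted p = 0.311). FcD mouse 5 was the lowest mouse for 10 of the 12 genes, and without it the list median was -0.18, with all 12 still lower. MHC class I presentation genes had a median of -0.15, and FcD mouse 5 was lowest for 14 of 16. Without that mouse the median was -0.04 with 11 of 16 lower, and without FcD mouse 1 it was -0.25.

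Of 22 IFNγ response genes, 21 were lower in FcD with a median of -0.14, but FcD mouse 5 was the lowest mouse for 19 of them. Without that mouse, 8 of the 22 were lower and the median was 0.05. FcD mouse 1 was the highest mouse for 13 of the 22 genes, and without it the median was -0.39. Within libraries 41 to 60 and 61 to 80 the median was -0.04 and 0.01. Prf1, which encodes perforin, measured 47.0, 43.3, 47.8, 49.0 and 11.8 CPM with FcD and 36.9, 61.9, 41.7, 42.2 and 34.0 CPM with WT. The other 4 FcD mice lay within the WT range. Its log2 fold change of -0.13 (95% CI -0.92 to 0.66) became 0.11 without FcD mouse 5, and that of Gzmb, which encodes granzyme B, went from -0.09 to 0.11. Cxcl9, a chemokine that IFNγ induces, measured 252.1, 158, 139, 126 and 36.2 CPM with FcD and 239, 193, 163, 140 and 113 CPM with WT. Ifng itself was rare, between 0.199 and 1.55 CPM with FcD and between 0.751 and 1.79 CPM with WT (log2 fold change -0.51, 95% CI -1.50 to 0.48). The genes of Il13, Il17a, Il21 and Il22 had 0 reads in all 10 mice. Type I interferon-stimulated genes had a median of -0.13, with 21 of 24 lower, and a median of -0.08 without FcD mouse 5. Ifi27l2a had the smallest p (-0.43, unadjusted p = 0.0421, adjusted p = 0.999), and Isg15, a ubiquitin-like protein gene, had -0.27 (95% CI -0.60 to 0.06).

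**Figure D3:**
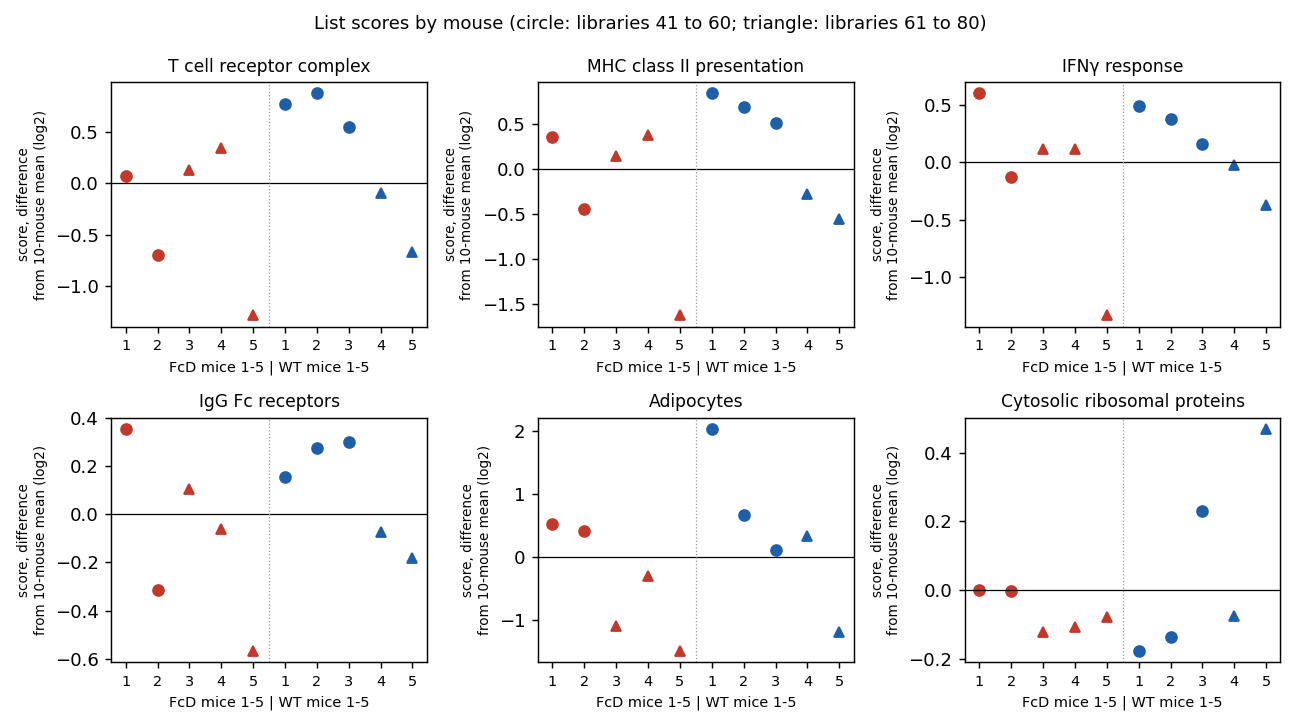
Each panel shows the score of a gene list (mean log2 CPM of its genes) in FcD mice 1 to 5 (red) and WT mice 1 to 5 (blue) as the difference from the mean of the 10 mice. FcD mouse 5 is lowest for the T cell, MHC class II, IFNγ response and IgG Fc receptor lists, WT mouse 1 is highest for adipocyte genes, and WT mouse 5 is highest for ribosomal protein genes.

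Adipocyte and skeletal muscle genes set WT mouse 1 apart. Adipocyte genes summed to 434 CPM in WT mouse 1 and to between 63.4 and 172 CPM in the other 9 mice, and skeletal muscle genes to 20.3 CPM against 4.01 to 6.43 CPM. Adipoq, which fat cells secrete as adiponectin, measured 4.08, 5.10, 1.63, 2.23 and 0.863 CPM with FcD and 20.6, 5.33, 2.84, 5.18 and 1.00 CPM with WT. The list medians were -1.18 for 12 adipocyte genes and -0.87 for 8 tested muscle genes, and -0.30 and -0.22 without WT mouse 1. No gene of either list had an unadjusted p under 0.05.

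WT mouse 1 was also high in matrix and B cell genes. Col1a1, the α1 chain of collagen I and a classical TGF-β target, measured 335, 235, 385, 294 and 363 CPM with FcD and 721, 288, 296, 426 and 292 CPM with WT. Its log2 fold change of -0.33 (95% CI -1.03 to 0.37) was -0.01 without WT mouse 1. Lox, which cross-links collagen, measured 70.5 CPM in WT mouse 1 and between 7.26 and 30.5 CPM in the other 9 mice. TGF-β stromal targets as a list had a median of -0.13 (13 of 18 lower) and of -0.0093 without that mouse, and fibroblast genes -0.52 and -0.14. B cell and plasma cell genes had a median of -0.73, with 19 of 20 lower, and the median was 0.11 with 7 of 20 lower without WT mouse 1. It was -2.02 without FcD mouse 4, -1.86 within libraries 41 to 60 and 0.14 within libraries 61 to 80. Ighg2b, an immunoglobulin heavy chain gene, had a log2 fold change of -2.82 (unadjusted p = 0.00546, adjusted p = 0.999), which was -0.86 without WT mouse 1. It measured 7.26 CPM in WT mouse 1 against 0 to 0.756 CPM in the others. The part of surrounding tissue in these differences was not tested.

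**Figure D4:**
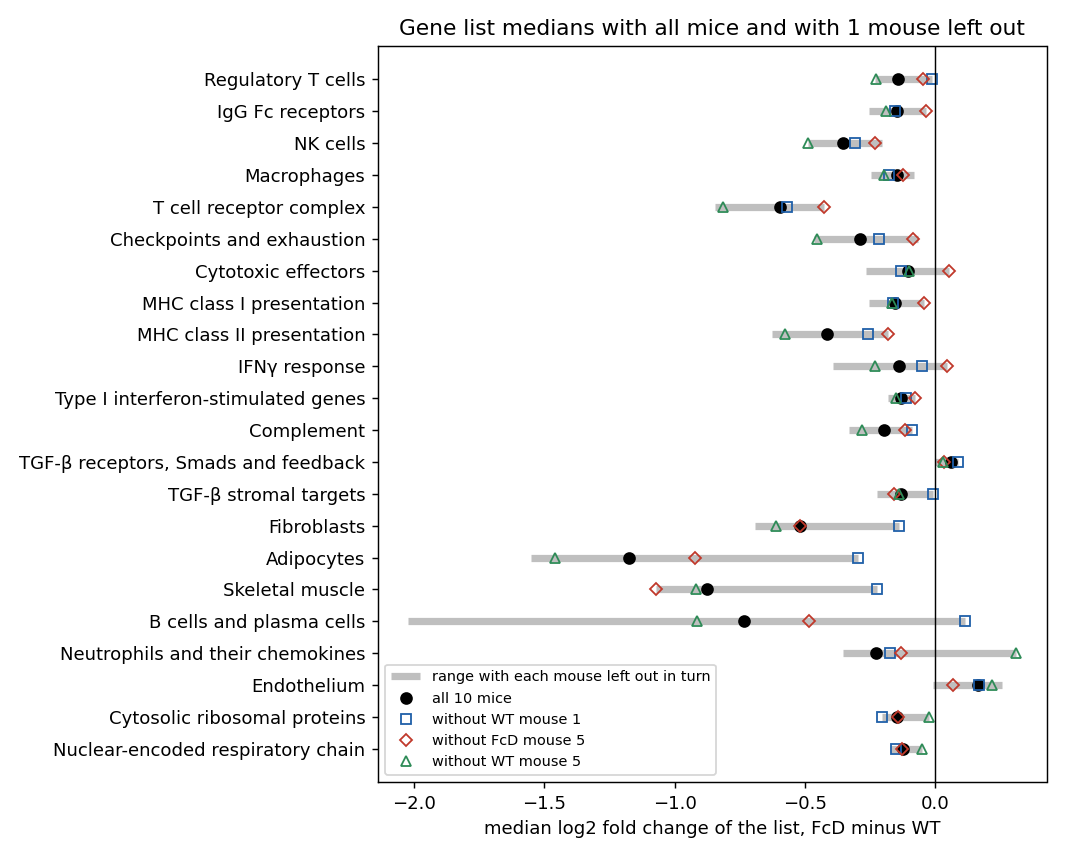
For 22 gene lists, the black dot is the median log2 fold change, FcD minus WT, over all 10 mice, the open symbols leave out 1 named mouse, and the gray bar spans the values with each mouse left out in turn. Adipocyte, muscle, fibroblast and B cell medians move toward or past 0 without WT mouse 1, whereas the T cell median stays between -0.84 and -0.43.

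WT mouse 5 stood apart in housekeeping groups. Of 83 tested ribosomal protein genes, 81 were lower in FcD with a median of -0.15, and WT mouse 5 had the highest value in 78 of them. Without it, the median was -0.03 and 57 were lower. The median was 0.02 within libraries 41 to 60 and -0.35 within libraries 61 to 80. Nuclear-encoded respiratory chain genes went from -0.13 (75 of 78 lower) to -0.05. Neutrophil genes and their chemokines summed to 227 CPM in WT mouse 5 and to between 107 and 158 CPM in the other 9 mice, and the neutrophil chemokine gene Cxcl1 measured 43.7 CPM there against 5.88 to 14.5 CPM. The list median was -0.23 with all mice and 0.31 without WT mouse 5, and it was 0.49 within libraries 41 to 60 and -1.08 within libraries 61 to 80. The lineage gene Ly6g had 2 reads in all FcD and 3 in all WT mice.

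Endothelial genes had a median of 0.16, with 12 of 15 higher in FcD, and a median of -0.0077 without FcD mouse 1. Cdh5, which encodes VE-cadherin, measured 46.1, 23.3, 31.4, 27.3 and 51.4 CPM with FcD against 34.0, 28.1, 18.8, 29.3 and 31.9 CPM with WT (0.34, 95% CI -0.38 to 1.07). Cell cycle and DNA replication genes had a median of 0.01, with 14 of 23 higher, and a median of -0.05 without FcD mouse 1, which had the highest value in 14 of them. Mcm4, a subunit of the replicative helicase, had 0.16 (95% CI -0.01 to 0.33, unadjusted p = 0.0607).

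The groups did not overlap for 63 of the 14760 genes (0.427%), with 30 higher (0.203%) and 33 lower (0.224%) in FcD. These differences were small, with a median size of 0.23 log2 units. Ppp4r1, a regulatory subunit of protein phosphatase 4, illustrates their kind. It measured 110, 106, 111, 112 and 113 CPM with FcD and 95.6, 96.4, 101, 101 and 101 CPM with WT, a log2 fold change of 0.16 (95% CI 0.04 to 0.28, unadjusted p = 0.0102). The isotype mice had 107 ± 3.8 CPM (SD, n = 5). Tube1, which encodes ε-tubulin of the centriole, measured 8.72, 10.7, 8.49, 9.88 and 8.43 CPM against 7.33, 7.83, 8.01, 7.65 and 6.43 CPM (0.31, unadjusted p = 0.00619). Pogz, Mdc1 and Utp20, which act in chromatin, DNA damage signaling and ribosome biogenesis, were higher by 0.19, 0.27 and 0.27.

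On the lower side, Vhl, whose product marks hypoxia-inducible factors for degradation, measured 47.8, 47.8, 45.0, 44.1 and 37.6 CPM with FcD and 48.9, 49.7, 62.2, 49.2 and 50.0 CPM with WT (-0.23, unadjusted p = 0.0243). The margin between the groups was narrow, and WT mouse 3 was high. Rit1, a Ras-related GTPase gene, had -0.26 (unadjusted p = 0.0136) and Cyb5a, which encodes cytochrome b5, -0.26 (unadjusted p = 0.0212). Egfl8 had the smallest p among these lower genes (-1.35, unadjusted p = 0.00241) at a level of 0.0708 to 0.677 CPM with FcD and 0.748 to 1.34 CPM with WT. None of these genes passed the adjusted test.

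The same Fc comparison in mice that also received anti-PD-1 rests on 10 other mice. Of these, WT mouse 5 and FcD mouse 4 stood apart, with median correlations of 0.920 and 0.947 with the other libraries. The comparison called 0 genes, with 192 at an unadjusted p under 0.05 (1.3%), and 18 genes did not overlap (0.122%). Without WT mouse 5 of this comparison, 0 genes were called and 796 had an unadjusted p under 0.05. None of these 18 was among the 63 without anti-PD-1. Of the 63 genes, 36 (57.1%) had the same sign with anti-PD-1, where 45.7% of all genes tested did, a share that ran from 41.5% to 59.3% with 1 of the mice with anti-PD-1 left out. Ppp4r1 had 0.03 with anti-PD-1, Tube1 -0.04 and Vhl -0.05. Across genes, which are not independent replicates, the 2 sets of fold changes had a Pearson r of -0.315 and a Spearman rho of -0.093. With 1 of the mice with anti-PD-1 left out, r ran from -0.337 to -0.185 and rho from -0.238 to 0.141.

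The difference between both contrasts was tested for each gene, and 0 genes passed an adjusted p of 0.05, with 264 at an unadjusted p under 0.05 (1.79%). For Lrrc32 the contrast was -0.36 alone and 0.28 with anti-PD-1 (unadjusted p of the difference = 0.313), and for Foxp3 -0.59 and 0.24 (unadjusted p = 0.211). As given earlier, both values alone lay near 0 without WT mouse 1. With 1 of the mice with anti-PD-1 left out, the second values ran from 0.017 to 0.81 for Lrrc32 and from -0.0015 to 0.40 for Foxp3. Cd3e had -0.72 and -0.57, and the T cell list median was -0.60 and -0.54. Without WT mouse 5 of the mice with anti-PD-1, the second values became 0.50 for Cd3e and 0.29 for the list. Fcgr4 had -0.23 and -0.32, and 0.33 with anti-PD-1 without that mouse. Adipocyte genes had medians of -1.18 and 2.08, and the second was 1.06 without FcD mouse 4 of the mice with anti-PD-1. Retn, which encodes resistin, had -2.03 and 2.46 (unadjusted p of the difference = 0.0126), and these were -1.39 without WT mouse 1 and 1.44 without FcD mouse 4 of the mice with anti-PD-1.

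**Figure D5:**
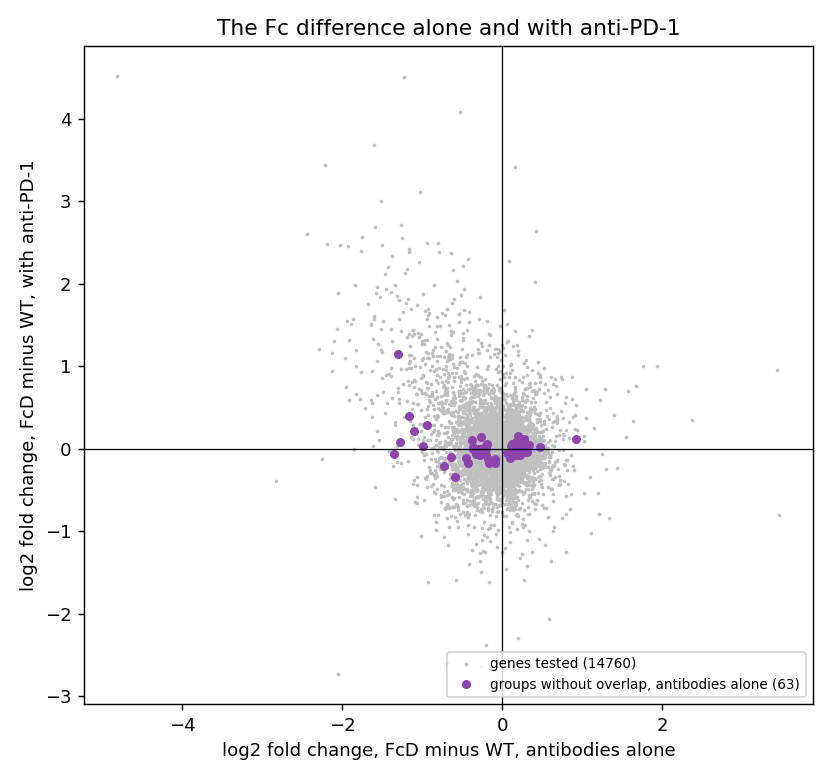
Each gray point is 1 of 14760 genes, with its FcD minus WT log2 fold change for the antibodies alone on the x axis and with anti-PD-1 on the y axis. Purple points are the 63 genes without overlap between FcD and WT alone, of which 36 have the same sign on both axes.

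Set against the isotype mice, which both contrasts share, neither mAb alone had a gene past the threshold. FcD had 0 genes called, 70 at an unadjusted p under 0.05 (0.474%) and 29 without overlap (0.196%). WT had 0, 143 (0.969%) and 28 (0.19%). The T cell list median was -0.38 for FcD and 0.22 for WT, and MHC class II genes had -0.09 and 0.38. IgG Fc receptor genes had -0.10 and 0.05, and Treg genes -0.07 and 0.02. Foxp3 had log2 fold changes of 0.65 with FcD and 1.24 with WT against a mean of 0.654 ± 0.30 CPM (SD, n = 5) in isotype mice, with 3.74 CPM in WT mouse 1 and 0.754 to 1.34 CPM in the other WT mice. B cell and plasma cell genes had medians of 1.16 and 2.18, and 17 of these 20 genes were highest in WT mouse 1. Within the library parts, the Fc comparison also called 0 genes, with 138 at an unadjusted p under 0.05 in libraries 41 to 60 (0.935%) and 461 in libraries 61 to 80 (3.12%). The difference between the parts called 0 genes, with 355 at an unadjusted p under 0.05 (2.41%).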

How the data were processed

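RNA of CT26 tumors from 40 mice was sequenced as stranded, paired-end mRNA libraries. The authors aligned the reads to GRCm38 with STAR 2.5.3a, per the labels, and deposited raw counts per gene from HTSeq 0.9.1 (54087 genes, 0 columns unused). All 40 mice entered 1 model with 8 groups. Genes were filtered with filterByExpr (14760 kept), scaled with TMM and tested with edgeR 4.0.16 (robust quasi-likelihood, R 4.3.3) with Benjamini-Hochberg adjustment over all genes tested. Intervals are 95% intervals of the fit. Alternatives were DESeq2 1.42.0 (Wald test, and its size factors in edgeR), no filter, only the compared groups in the model, library part as covariate, a prior count of 0.5 for scores (main 2), and each mouse left out. The methods were tested on simulated data. Replicate libraries differed by more than counting error (chi-square per degree of freedom at least 5.44 over 20 pairs).

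Genes were named by a rule: 37 chosen genes, the 8 higher and 8 lower genes with the smallest p among those without overlap, and for each of 50 lists the higher and lower member with the smallest p (141 genes, not all of which are printed). Adipoq, Vim, Krt8 and Krt19 were added after their values were seen. The groups, lists and genes were chosen with earlier results of these data known. Positions and exon lengths come from GENCODE vM21 (139 of 141 names matched). Replicate numbers are names in accession order.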

Additional observations from a re-analysis of the deposited data

Results flagged for a closer look

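Within each group of 5 mice, 140 named genes and 49 list sums were searched for a mouse whose gap to its nearest neighbor exceeded Dixon's critical share of the group's range. Of 378 groups of values, 38 held such a mouse. Chance gives about 1 in 20 only for independent, normally distributed values. The CPM values were not log-transformed, and the groups of values share mice and genes, so no excess over chance can be read from this count. Fold changes did not differ past the threshold between the conditions with and without anti-PD-1 or between library parts, so no difference of that kind is listed.

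In WT mouse 1, the high values were Lrrc32 (9.28 CPM), Foxp3 (3.74), Cd4 (5.09), Cfd (100.3), Ighg2b (7.26), Vwf (7.48), Mfap5 (32.8), Myh4 (3.22) and Mmp3 (16.2). Its summed levels were high for B and plasma cells (269.6 CPM), skeletal muscle (20.3), adipocytes (434) and dendritic cells (472), and low for cytotoxic effectors (1066). Over whole lists, this mouse was the highest of the 10 in 7 of 21 Treg genes, 3 of 15 endothelial genes and 11 of 12 adipocyte genes.

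In WT mouse 5, Tgfb1 (109 CPM), Cxcl1 (43.7), Asl (31.5) and Jun (192) were high and Erap1 (101) low, and the sums of neutrophil genes (227) and of immediate early and heat shock genes (1254) were high. In WT mouse 3, Vhl (62.2 CPM) was high and Pcyt1b (2.14), Smad3 (53.8), Fn1 (1001) and Col4a1 (302) were low.

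In FcD mouse 5, Prf1 (11.8 CPM) and Erap1 (92.9) were low. FcD mouse 3 had high Krt15 (1.63 CPM) and epidermis sum (16.1), and low Hspa1a (2.41). FcD mouse 4 had high Ikzf2 (3.25 CPM) and Gzmk (2.30). FcD mouse 1 had high Mfap5 (13.3 CPM) and red blood cell sum (185), and low Slc7a1 (143).

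Myh4 in FcD mouse 3 (0.0708 CPM, 1 read) and Krt15 in WT mouse 4 (0.155 CPM, 2 reads) are among the 38 only because the other mice of the group had 0 reads, so that any read passes the criterion, and they are no sign of a mouse that stands apart.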

How the results depend on the processing

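Under DESeq2's size factors, no filter, DESeq2's Wald test, only the compared groups in the model, library part as covariate, and with single mice left out, the number of genes called between FcD and WT was 0, as it was in the main fit. The same held for the tests of the difference between the comparisons with and without anti-PD-1 and between library parts, under the alternatives run for each. The number of genes at an unadjusted p under 0.05 was 207, but 764 without a filter (31326 genes tested), 313 with DESeq2's Wald test and 413 with only the compared groups in the model, and it ran from 121 to 522 with 1 mouse left out (121 without FcD mouse 5, 136 without WT mouse 3, 522 without FcD mouse 1). With anti-PD-1, the Fc comparison called 0 genes with each of its 10 mice left out and without both mice that stood apart, settings chosen after seeing the data. Genes beyond 1 log2 unit numbered 2 higher and 50 lower with only the compared groups. Of 693 values of named genes under the 5 alternatives, 3 had another sign (Tnf, Ddx58, Itgb3), and of 1410 values with 1 mouse left out, 81 did. Of 50 list medians, 20 changed sign when some mouse was left out. No paired analysis was possible because each mouse has its own library and the replicate numbers follow accession order only. With 5 mice a group, rare transcripts such as Foxp3 and Ctla4 have intervals over 1 log2 unit wide.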

Other observations

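The keratin genes Krt8 and Krt19, chosen after their values were seen, were separated by library part in both groups, and this was not tested. Krt8, of simple epithelia, measured 0.742 and 0.0835 CPM in FcD mice 1 and 2 and 0.374, 0.0943 and 0.315 CPM in WT mice 1 to 3, all with library numbers of 41 to 60. In the other mice it measured 3.11, 8.39 and 4.58 CPM with FcD and 9.43 and 7.76 CPM with WT. Krt19 had the same order, at 0.251 to 0.973 CPM in the first part and 2.97 to 9.61 CPM in the second. No mouse of the first part reached the lowest mouse of the second for either gene. The parts also differ in mouse sex, and the 2 cannot be told apart.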
